A study of Homo sapiens with 24 samples.

Results

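miR-221 and miR-222 are neighbouring human microRNAs (miRNAs) with a long record as oncogenic miRNAs, and they have been reported as targets of NF-κB. Both arms of each hairpin were followed across 6 groups of OV90 cells. The rows were taken by name, hsa-miR-221-3p, hsa-miR-221-5p, hsa-miR-222-3p and hsa-miR-222-5p, which are 4 of the 2656 mature miRNAs measured. No measured value entered this choice.

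A miRNA is transcribed as part of a longer RNA, cut out as a hairpin and then diced into a short duplex whose arms are named 5p and 3p. The arm that is loaded into an Argonaute protein guides it to messenger RNAs through the seed, bases 2 to 8 of the miRNA, and lowers their translation and stability. For miR-221 and miR-222 the 3p arms are the well known guide strands. CDKN1B (p27), an inhibitor of the cell cycle, is their textbook target, and epithelial tumors of many organs express them at high levels.

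OV90 is an established epithelial ovarian cancer cell line. Its cells stably carried a doxycycline-inducible shRNA that was a negative control (shNeg), or was directed against RELA, the canonical NF-κB subunit, or against RELB, the non-canonical subunit. Each was grown as adherent cells in medium with serum or as spheroids in ultra-low attachment plates in serum replacement with EGF and FGF, a condition that enriches for tumor-initiating cells (TICs), which gave 6 groups of 4 replicates and 24 libraries. All groups, the controls included, received 1 µg/ml doxycycline for 72 h, and the genotype label of the shNeg samples reads Wildtype. Culture and medium changed together and cannot be told apart. The promoter that drives the shRNA and the number of clones behind each line are not given in the sources used here, nor is it stated whether replicates came from separate cultures, so p-values measure only the spread between these samples.

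The deposited values were estimated counts per mature miRNA. Totals ran from 3797176 to 8283546 per library in adherent conditions and from 959134 to 3580932 in spheroid conditions, with the spheroid shNeg libraries lowest at 959134 to 1580255. Spheroid shNeg replicate 1 stood apart, where 432 miRNAs had a count, compared with 813 to 885 in replicates 2 to 4, and results that rest on it are given with and without it. Of 7 epithelial marker miRNAs, 4 had a mean over 10 CPM (counts scaled to the same library size), and the sum of all 7 ran from 2486 to 16336 CPM. In adherent cells it was 4853 to 5073 CPM with shNeg, 2486 to 3449 with shRELA and 7799 to 9638 with shRELB. In spheroids it was 3238 to 4630, 4489 to 8000 and 7911 to 16336 CPM in the same order. The part of this sum in the differences below was not tested. The hepatocyte marker miR-122-5p was also high in every library, at 13732 to 29400 CPM, while the sum of 4 leukocyte markers stayed at 4.14 to 50.9 CPM. The endothelial marker miR-126-3p was at 2093 to 8826 CPM in adherent and 538 to 1667 CPM in spheroid conditions, and its part in the culture differences below was not tested. The sum of 4 mesenchymal markers was 68 to 118 CPM in adherent shRELA against 316 to 365 CPM in adherent shNeg. In spheroids it was 69.8 to 95.0 CPM with shRELA against 110 to 161 CPM with shNeg. With shRELB it was 320 to 358 CPM in adherent cells and 195 to 309 CPM in spheroids. The sum of 3 erythroid or serum markers was 415 to 707 CPM in spheroid shNeg, against 64 to 98 CPM in spheroid shRELA, 136 to 214 CPM in spheroid shRELB and 19.7 to 45.3 CPM in adherent cells. The remaining lists summed to 0 to 4.21 CPM for neuron and 0 to 8.40 CPM for muscle markers. Messenger RNA is not part of these libraries, and the degree of RELA or RELB silencing could therefore not be checked in them. The paper reports silencing of RELA and of RELB in OV90 cells by Western blot.

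The mature sequences are shown first because the seed decides which messages a miRNA can pair with, and it is what joins miR-221-3p to miR-222-3p. Capitals mark the seed, and the sequences are those of RefSeq on GRCh38.p14.
miR-221-3p: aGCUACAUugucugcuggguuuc
miR-222-3p: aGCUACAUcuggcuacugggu
miR-222-5p: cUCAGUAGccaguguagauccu
The 3p arms were identical over their first 8 bases and at 11 of the 21 positions compared. Among 2370 human mature miRNAs in the table, no other miRNA carried the seed GCUACAU, so these 2 were the whole seed group within it. The table is not complete, since it lacks miR-221-5p. The seed of miR-222-5p was shared by 0 others. miR-221-5p is named only.

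The hairpins both lie on the minus strand of chromosome X, MIR221 at X:45746157-45746266 and MIR222 at X:45747015-45747124 (GRCh38.p14), with 748 bases between them. They are shown because all 4 arms are cut from them, with capitals for the mature arms printed above.
MIR221: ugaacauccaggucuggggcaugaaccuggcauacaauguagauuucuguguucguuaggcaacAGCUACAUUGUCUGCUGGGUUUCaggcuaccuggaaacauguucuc
MIR222: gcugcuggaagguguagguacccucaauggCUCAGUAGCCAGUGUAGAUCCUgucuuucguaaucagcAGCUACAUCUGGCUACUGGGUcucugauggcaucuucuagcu
Each hairpin was 110 bases long. In the GENCODE v44 annotation of GRCh38 both fall inside MIR222HG, a long non-coding RNA gene at X:45745210-45770274, and both lie in the intron of its transcript MIR222HG-201. MIR221 also overlaps the only exon of MIR222HG-203 by 24 bases, and MIR222 lies outside that transcript. Both hairpins lie outside MIR222HG-202 and MIR222HG-204. In the direction of transcription MIR222 comes first, 23150 bases from the start of the gene, and MIR221 follows at 24008 bases.

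**Figure D1:**
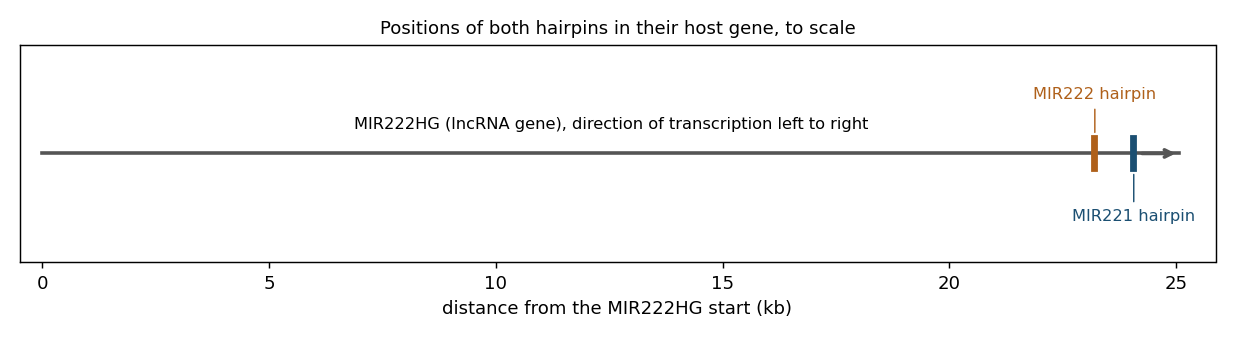
The map shows MIR222HG to scale, with distance from its annotated start in kilobases on the x axis and both hairpins as blocks. MIR222 and MIR221 sit close together near the 3′ end of a host gene of 25065 bases.

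The promoter of the host gene is shown because both hairpins lie inside that gene and the study silenced NF-κB subunits. Whether the hairpins are transcribed from it in these cells was not measured. The 300 bases at X:45770218-45770517 on the minus strand, which span the RefSeq start, were searched on both strands for the NF-κB consensus of 10 bases. A single match, in capitals, began 235 bases before the start.
MIR222HG promoter: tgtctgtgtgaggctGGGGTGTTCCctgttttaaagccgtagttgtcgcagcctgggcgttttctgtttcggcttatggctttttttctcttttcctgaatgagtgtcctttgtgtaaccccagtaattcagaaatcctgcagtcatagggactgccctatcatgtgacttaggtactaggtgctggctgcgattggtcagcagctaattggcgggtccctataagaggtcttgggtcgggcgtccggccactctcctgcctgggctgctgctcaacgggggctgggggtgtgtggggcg
Of 35116 promoters of the same length, 3956 (11.3%) held at least 1 match, and the match describes letters only.

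CDKN1B is the known target used here to show what the shared seed pairs with, and its mRNA was not measured in these libraries. The 3′ UTR of CDKN1B-201 on chromosome 12 (plus strand, GRCh38) is 1342 bases long and holds 2 stretches that pair with bases 2 to 8 of both 3p arms, in capitals below, at positions 201 and 274 of the UTR.
CDKN1B site at 12:12721213-12721235: ctctaaaagcgttggATGTAGCa
CDKN1B site at 12:12721286-12721308: tagtttttaccttttATGTAGCa

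All 4 arms passed the filter of at least 1 CPM in at least 4 libraries that left 905 miRNAs for testing, and they spanned a wide range of abundance. miR-221-3p had counts of 6724 to 137529 per library and ranked between 11 and 28 among all miRNAs. miR-222-3p had 680 to 21775 counts and ranked between 33 and 83. Together the seed pair took 0.607% to 2.61% of all counts of a library. The 5p arms were minor, with 26 to 909 counts for miR-221-5p and 0 to 17 counts for miR-222-5p, which was at 0 in 4 of the 24 libraries. All values of the 4 arms were whole numbers.

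The levels of miR-221-3p fell into an order with the adherent shRELB and shNeg cells at the top and the spheroid shNeg cells at the bottom. Means were 21543 ± 1388 CPM in adherent shRELB, 20617 ± 1157 in adherent shNeg, 15997 ± 1755 in spheroid shRELB, 15389.6 ± 1777 in spheroid shRELA, 14628 ± 1049 in adherent shRELA and 10308 ± 3897 in spheroid shNeg (SD, n = 4, CPM scaled by TMM). Of neighbours in this order, only adherent shNeg and spheroid shRELB had libraries that did not overlap. miR-222-3p had the same groups at the top and the bottom, with the 3 groups between them in reverse order, at 3616 ± 138, 3279.6 ± 245, 2275 ± 125, 2269 ± 196, 1905 ± 299 and 1212 ± 505 CPM for adherent shRELB, adherent shNeg, adherent shRELA, spheroid shRELA, spheroid shRELB and spheroid shNeg (SD, n = 4). Here adherent shNeg stood clear of adherent shRELA, and spheroid shRELA stood clear of spheroid shRELB, while the other neighbours overlapped.

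For the passenger arm miR-221-5p the 3 adherent groups came before the 3 spheroid groups. It was at 139.8 ± 14.1 CPM in adherent shRELB, 112 ± 13.0 in adherent shNeg, 91.9 ± 2.39 in adherent shRELA, 54.5 ± 9.85 in spheroid shRELA, 53.1 ± 7.56 in spheroid shRELB and 20.0 ± 3.57 in spheroid shNeg (SD, n = 4). Adherent shRELA did not overlap spheroid shRELA, and spheroid shRELB did not overlap spheroid shNeg. miR-222-5p stayed close to its counting limit, with group means between 0.256 and 1.96 CPM, and none of its neighbouring groups separated. In a bulk library a lower level cannot be told apart from fewer cells that express the miRNA.

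**Figure D2:**
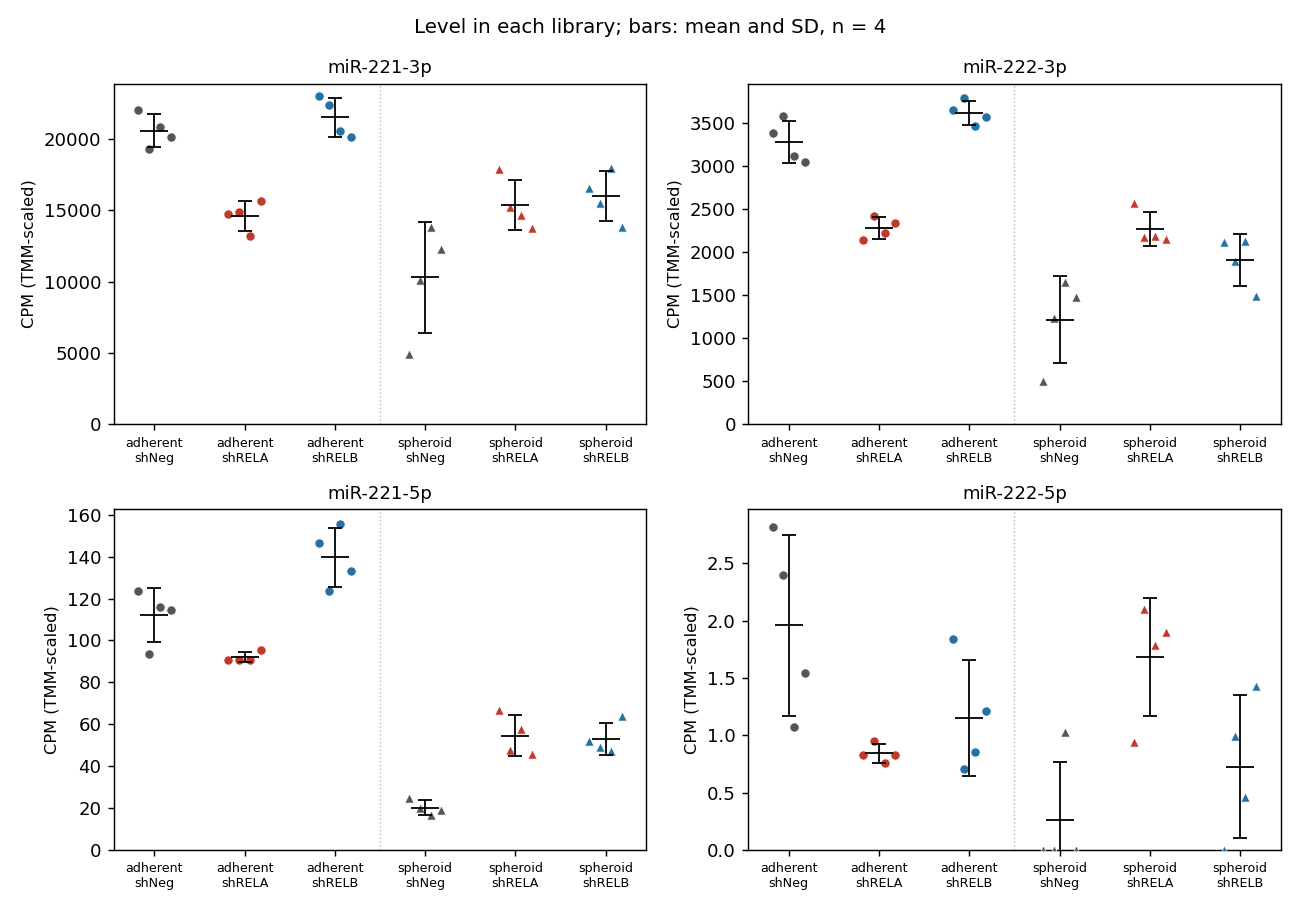
Each panel plots 1 arm, with TMM-scaled CPM on a linear y axis, a point for each library and a bar for the mean and SD of 4 libraries in each of the 6 groups. Spheroid shNeg is the lowest group in all 4 panels, and its replicate 1 lies below the others for miR-221-3p (4931 CPM) and miR-222-3p (499 CPM).

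RELA knockdown in adherent conditions was compared with shNeg to ask whether the pair depends on the canonical subunit. miR-221-3p was at 14760, 14898, 13175 and 15677 CPM with shRELA and at 22069, 19341, 20891 and 20167 CPM with shNeg. Every shRELA library lay below every shNeg library, and the mean was 1.41-fold lower. The log2 fold change of -0.50 (SE 0.19) did not pass the test (edgeR FDR = 0.117), for which a call needed an FDR below 0.01 and a fold change above 2. miR-222-3p was at 2132, 2415, 2217 and 2335 CPM with shRELA against 3386, 3573, 3111 and 3049 CPM with shNeg. Its groups were likewise separate, with a log2 fold change of -0.53 (SE 0.21, edgeR FDR = 0.138).

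Of the 4 arms, 0 were called down- or up-regulated by RELA knockdown in adherent cells, where 3.76% of the 905 miRNAs were called. DESeq2 and limma on log2(CPM + 1) also called 0, and 2 arms, both 3p, had an unadjusted edgeR p under 0.05. The share of all miRNAs under that unadjusted p was not counted. Such counts of arms, here and in the comparisons below, are therefore descriptive only. The groups did not overlap for 3 arms, all lower with shRELA, and for 20.7% of all miRNAs. The third was miR-222-5p, with 5, 5, 4 and 5 counts against 17, 9, 6 and 9. At its narrowest this separation was 5 against 6 counts, which is within counting error. miR-221-5p overlapped, at 90.8, 90.8, 90.5 and 95.5 CPM against 123.8, 93.6, 116.2 and 114.6 CPM (log2 fold change -0.29, SE 0.19, edgeR FDR = 0.471). The median log2 fold change of all miRNAs was 0.09. The epithelial and mesenchymal marker sums were also lower in adherent shRELA than in adherent shNeg. The mesenchymal sum was lower with shRELA in spheroids too, where the arms had higher means. The part of these marker sums in the values was not tested. Without spheroid shNeg replicate 1, a library outside this comparison that entered the shared estimate of spread, the FDR of miR-221-3p was 0.00545 and that of miR-222-3p 0.00448, with the log2 fold changes still at -0.50 and -0.53 and the calls still absent for want of a fold above 2. With only the groups compared in the fit they were -0.55 (edgeR FDR = 2.41e-04) and -0.57 (edgeR FDR = 0.00109), again without a call.

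RELB knockdown in adherent conditions left the guide arms close to their shNeg levels. miR-221-3p was at 23007, 22422, 20613 and 20128 CPM with shRELB, within or just above the shNeg range, a log2 fold change of 0.06 (SE 0.19, edgeR FDR = 0.882). miR-222-3p was at 3643, 3789.5, 3459 and 3572 CPM (log2 fold change 0.14, SE 0.21, edgeR FDR = 0.746). The highest library of miR-221-5p was found here, among values of 146.5, 123.7, 155.7 and 133.3 CPM, of which 3 lay above every shNeg library (log2 fold change 0.32, SE 0.19, edgeR FDR = 0.322). miR-222-5p had 11, 3, 5 and 6 counts.

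For RELB knockdown in adherent cells the number of arms called was 0, against 7.07% of all miRNAs. The number with an unadjusted edgeR p under 0.05 was 0 as well, and DESeq2 and limma called 0. The number of arms whose groups did not overlap was 0, against 33.1% of all miRNAs.

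The direct contrast of both knockdowns in adherent cells put shRELA below shRELB. The groups did not overlap for miR-221-3p, miR-222-3p and miR-221-5p, 3 of the 4 arms against 31.3% of all miRNAs. Log2 fold changes of shRELA against shRELB were -0.56 (SE 0.19, edgeR FDR = 0.0283) for miR-221-3p, -0.67 (SE 0.21, edgeR FDR = 0.0193) for miR-222-3p and -0.61 (SE 0.19, edgeR FDR = 0.0216) for miR-221-5p. None of the 4 arms reached both thresholds for a call, where 10.8% of all miRNAs did, although 3 had an FDR below 0.05, as did 24.3% of all miRNAs. An unadjusted edgeR p under 0.05 was seen for 3 arms, and DESeq2 and limma called 0.

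In spheroid conditions the sign of the RELA comparison was the other way. miR-221-5p was at 67.0, 47.8, 57.7 and 45.6 CPM with shRELA against 24.9, 19.9, 16.4 and 18.9 CPM with shNeg. All 4 shRELA libraries lay above all 4 shNeg libraries, and the arm was up-regulated 2.73-fold (log2 fold change 1.45, SE 0.22, edgeR FDR = 5.12e-06). It was the only 1 of the 4 arms called after RELA knockdown in spheroids, where 15.1% of all miRNAs were called and 7.51% were called higher. At an FDR below 0.05 with any fold, 3 arms passed, against 27.4% of all miRNAs.

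The guide arms were higher by less than the fold a call needs. miR-222-3p was at 2562, 2171, 2188 and 2153 CPM with shRELA in spheroids and at 499, 1232, 1645 and 1472 CPM with shNeg. Those groups did not overlap either, and the log2 fold change was 0.90 (SE 0.21, edgeR FDR = 0.00126), 1.87-fold. The number of arms with separate groups was thus 2 of 4, against 22.5% of all miRNAs. miR-221-3p was at 17900, 15232, 14649.5 and 13778 CPM against 4931, 10125, 13850.0 and 12326 CPM, where the lowest shRELA library lay under the highest shNeg library (log2 fold change 0.58, SE 0.19, edgeR FDR = 0.0204). miR-222-5p had 2, 4, 4 and 5 counts with shRELA and 0, 0, 2 and 0 counts with shNeg, where a count of 0 allows up to 3, so no fold change is given. With library totals in place of TMM the log2 fold changes were 0.16 (edgeR FDR = 0.599) for miR-221-3p, 0.48 (edgeR FDR = 0.118) for miR-222-3p and 1.06 for miR-221-5p, of which the last was still called.

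Spheroid RELB knockdown gave values close to those of RELA knockdown. miR-221-5p was at 52.2, 49.2, 47.0 and 64.0 CPM with shRELB, above every spheroid shNeg library, and was up-regulated 2.66-fold (log2 fold change 1.41, SE 0.22, edgeR FDR = 6.06e-06). Only that arm was called of the 4, where 13.4% of all miRNAs were called and 7.29% were called higher. At an FDR below 0.05 with any fold, 3 arms passed, against 26.4% of all miRNAs. With the 2 compared groups fitted alone its FDR was 0.0296 and the call was lost.

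Neither 3p arm was called after spheroid RELB knockdown. miR-221-3p was at 16604, 15515, 18013 and 13858 CPM, just clear of the shNeg libraries (log2 fold change 0.63, SE 0.19, edgeR FDR = 0.0113). miR-222-3p was at 2113, 1893, 2127 and 1486 CPM, and its lowest shRELB library lay within the shNeg range (log2 fold change 0.65, SE 0.21, edgeR FDR = 0.0197). Separate groups were thus seen for 2 arms, miR-221-3p and miR-221-5p, against 17.3% of all miRNAs. miR-222-5p had 0, 3, 1 and 5 counts. With library totals the log2 fold changes were 0.35 (edgeR FDR = 0.208) for miR-221-3p, 0.36 (edgeR FDR = 0.260) for miR-222-3p and 1.15 for miR-221-5p, again with only the last called.

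Spheroid shNeg replicate 1 carried part of the size of the 3p differences, since it held the lowest shNeg value of both. Without it, spheroid shNeg was at 12100.2 ± 1873 CPM for miR-221-3p, 1449.7 ± 208 for miR-222-3p and 18.4 ± 1.78 for miR-221-5p (SD, n = 3). The log2 fold changes of miR-221-3p then became 0.35 with RELA knockdown (edgeR FDR = 0.0718) and 0.40 with RELB knockdown. Those of miR-222-3p became 0.65 (edgeR FDR = 8.5e-04) and 0.39, and those of miR-221-5p became 1.57 and 1.54. Both knockdown comparisons in spheroids share the same 4 shNeg libraries, which were also the shallowest and held the highest sum of erythroid or serum markers. The part of depth and of those markers in these differences and in that between cultures in shNeg cells was not tested.

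The direct contrast of both knockdowns in spheroids gave log2 fold changes of -0.06 (SE 0.19, edgeR FDR = 0.887) for miR-221-3p, 0.25 (SE 0.21, edgeR FDR = 0.463) for miR-222-3p and 0.04 (SE 0.20, edgeR FDR = 0.946) for miR-221-5p. Of the 4 arms, 0 were called by edgeR, DESeq2 or limma and 0 had an unadjusted p under 0.05, against 6.63% of all miRNAs called. Only miR-222-3p had separate groups, with shRELA above shRELB, as did 20.4% of all miRNAs.

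Spheroid and adherent conditions were compared within each shRNA, to ask how the pair stood in the TIC-enriched culture. In shNeg cells all 4 arms were lower in spheroids in TMM-scaled CPM, while the ratio of both 3p arms to miR-30e-5p had a higher mean there, as given further on. The CPM groups did not overlap for any of the 4 arms, against 47.5% of all miRNAs. For miR-222-5p this separation lay within the counting limit and cannot be judged. Its highest spheroid library was at 1.03 CPM from 2 counts and its lowest adherent library at 1.08 CPM from 6 counts. A count of 0 in spheroid shNeg replicate 2 allows up to 2.29 CPM. miR-221-5p fell most among the arms called, 5.62-fold (log2 fold change -2.49, SE 0.22, edgeR FDR = 1.45e-11). miR-222-3p fell 2.71-fold (log2 fold change -1.44, SE 0.21, edgeR FDR = 7.09e-07). miR-221-3p fell 2.00002-fold (log2 fold change -1.00001, SE 0.19, edgeR FDR = 3.39e-05), only just past the fold threshold. The count of arms called was 3, all lower, where 42.2% of all miRNAs were called and 20.9% were called lower. At an FDR below 0.05 with any fold all 4 arms passed, against 59.4% of all miRNAs. miR-222-5p had 0 to 2 counts in spheroid and 6 to 17 counts in adherent shNeg libraries and was not called (edgeR FDR = 0.0217), in libraries of very unequal depth.

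The call on miR-221-3p rested on single libraries and on the processing. Without spheroid shNeg replicate 1 its log2 fold change was -0.77, without adherent shNeg replicate 1 it was -0.98 and without adherent shNeg replicate 3 it was -0.99, each short of a fold of 2. It was -0.87 with median-ratio factors and with DESeq2, -0.64 with a filter at a mean of 10 CPM, -0.54 with library totals and -0.71 with only the groups compared (edgeR FDR = 0.0581), and was called in none of these. Without spheroid shNeg replicate 1, miR-222-3p was at -1.177 and miR-221-5p at -2.61, both still called. With library totals in place of TMM the call on miR-222-3p was also lost, at -0.98.

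The same culture comparison looked different in the knockdown cells. With shRELA, miR-221-3p had a log2 fold change of 0.07 (SE 0.19, edgeR FDR = 0.766), which was -0.03 with median-ratio scaling, and miR-222-3p one of -0.00 (SE 0.21, edgeR FDR = 0.992), which was 0.14 with library totals. Spheroid and adherent libraries overlapped for both 3p arms. miR-221-5p was lower in spheroids in all 4 shRELA libraries (log2 fold change -0.75, SE 0.20, edgeR FDR = 0.00223), short of a fold of 2. It was the only arm with separate groups, against 46.3% of all miRNAs. In shRELA cells 0 arms were called by edgeR, DESeq2 or limma, 1 had an unadjusted p under 0.05, and 32.6% of all miRNAs were called. At an FDR below 0.05 with any fold that same arm, miR-221-5p, passed, as did 49.3% of all miRNAs.

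With shRELB the culture difference lay between those of the other shRNAs. miR-221-5p fell 2.63-fold (log2 fold change -1.39, SE 0.20, edgeR FDR = 1.04e-06) and was the only arm called, against 25.0% of all miRNAs called and 11.4% called lower. At an FDR below 0.05 with any fold 2 arms passed, against 43.3% of all miRNAs. miR-222-3p was 1.90-fold lower (log2 fold change -0.92, SE 0.21, edgeR FDR = 6.32e-04), and it passed the fold threshold without spheroid shRELB replicate 2 (-1.02) or replicate 3 (-1.01). miR-221-3p was at -0.43 (SE 0.19, edgeR FDR = 0.0641). For all 3 of these arms the spheroid libraries lay below the adherent libraries, as they did, in either direction, for 41.5% of all miRNAs.

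Whether a knockdown acted differently in the cultures was tested as the difference of its log2 fold changes, spheroid minus adherent. For RELA knockdown this difference was 1.07 (SE 0.27, edgeR FDR = 0.00532) for miR-221-3p, 1.43 (SE 0.30, edgeR FDR = 9.99e-04) for miR-222-3p and 1.74 (SE 0.29, edgeR FDR = 1.22e-04) for miR-221-5p. These 3 of the 4 arms were called, all toward a higher value in spheroids, where 7.62% of all miRNAs were called and 4.31% in that direction. In each case the log2 fold change was below 0 in adherent cells and above 0 in spheroids. miR-222-5p was not called (edgeR FDR = 0.0431), so that all 4 arms, against 14.0% of all miRNAs, had an FDR below 0.05.

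The RELA difference of miR-221-3p was close to the threshold. It lost its call without adherent shNeg replicate 1 (1.04) or replicate 3 (1.07), without adherent shRELA replicate 3 (1.02) and without spheroid shNeg replicate 1 (0.85). Other processing also removed that call, at 0.85 with median-ratio factors and with DESeq2, 0.90 with a filter at a mean of 10 CPM and 0.76 with library totals. Those of miR-222-3p and miR-221-5p kept their calls without each of the 16 libraries compared in turn, and without spheroid shNeg replicate 1 they were 1.177 and 1.86. With library totals miR-222-3p lost its call, at 1.11 (edgeR FDR = 0.0175), and miR-221-5p kept it.

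For RELB knockdown the difference between cultures was called for 1 arm, miR-221-5p, at 1.10 (SE 0.29, edgeR FDR = 0.00751), where 8.51% of all miRNAs were called and 4.64% higher. That call was lost without any 1 of 7 libraries, adherent shNeg replicates 1, 3 and 4, adherent shRELB replicates 1, 2 and 4 and spheroid shNeg replicate 3, with values of 1.04 to 1.12. miR-221-3p was at 0.57 (SE 0.27, edgeR FDR = 0.155) and miR-222-3p at 0.51 (SE 0.30, edgeR FDR = 0.254).

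**Figure D3:**
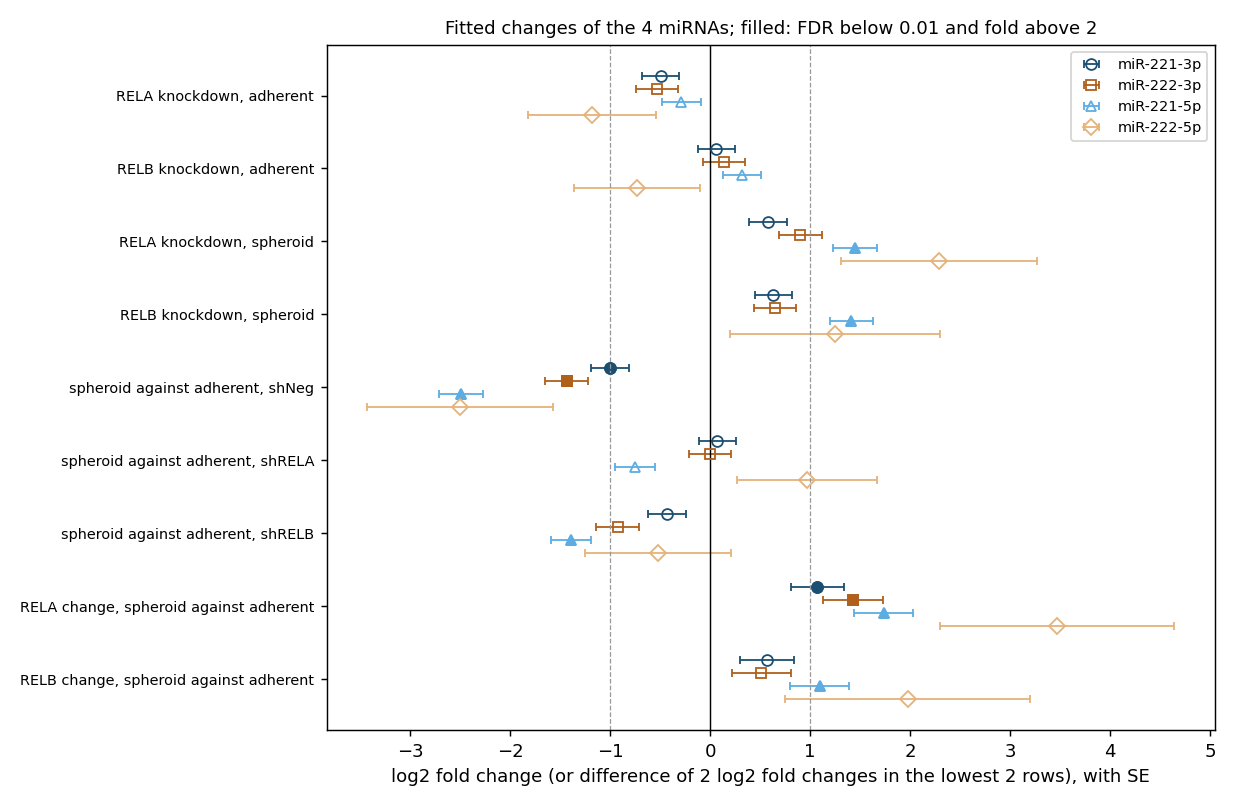
The x axis gives the log2 fold change of each arm, or for the lowest 2 rows the difference of 2 log2 fold changes, with bars for the SE and dashed lines at a fold of 2. Filled symbols mark arms that passed both thresholds, such as miR-221-5p in both spheroid knockdowns and the 3 arms that were lower in spheroid shNeg cells.

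Ratios within a library do not depend on how libraries are scaled. The hairpins of miR-221-3p and miR-222-3p lie in the same host gene, and these arms share a seed. The ratio of miR-221-3p to miR-222-3p was narrow in adherent cells, at 6.32 ± 0.61 with shNeg, 6.44 ± 0.46 with shRELA and 5.96 ± 0.28 with shRELB (SD, n = 4). It was 8.72 ± 0.78 in spheroid shNeg, 6.77 ± 0.29 in spheroid shRELA and 8.46 ± 0.63 in spheroid shRELB. Spheroid shNeg and shRELB libraries thus lay above every adherent library, while spheroid shRELA libraries ran from 6.40 to 7.01 and overlapped adherent shNeg libraries. Without replicate 1, at 9.88, spheroid shNeg was at 8.34 ± 0.10 (n = 3).

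The ratio of guide to passenger arm, miR-221-3p to miR-221-5p, also differed by culture. It was 185.0 ± 14.3, 158.9 ± 8.99 and 155.3 ± 20.1 in adherent shNeg, shRELA and shRELB (SD, n = 4). In spheroids it was 541 ± 268, 284 ± 29.8 and 307 ± 68.2. Spheroid shNeg held a wide spread, with replicate 1 at 194.9 and the others at 500.4 to 831, which gave 657 ± 166 without it (n = 3). Each spheroid knockdown group lay above its adherent counterpart without overlap. The shNeg groups overlapped, since adherent shNeg replicate 2, at 206, lay above spheroid shNeg replicate 1.

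None of the 35 exact 2-sided permutation tests of the ratios had an adjusted p below 0.05. With 4 libraries against 4 the smallest p is 0.0286, which 16 tests reached, with an adjusted p of 0.0625. At least 20 tests at the smallest p would have been needed for an adjusted p of 0.05. The tests at the smallest p included the ratio of the 3p arms in spheroid against adherent shNeg (log2 difference 0.47) and shRELB (0.50) and in spheroid shRELA against shNeg (-0.36). Without spheroid shNeg replicate 1 the first was 0.41 and the last -0.30, with the groups still separate.

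**Figure D4:**
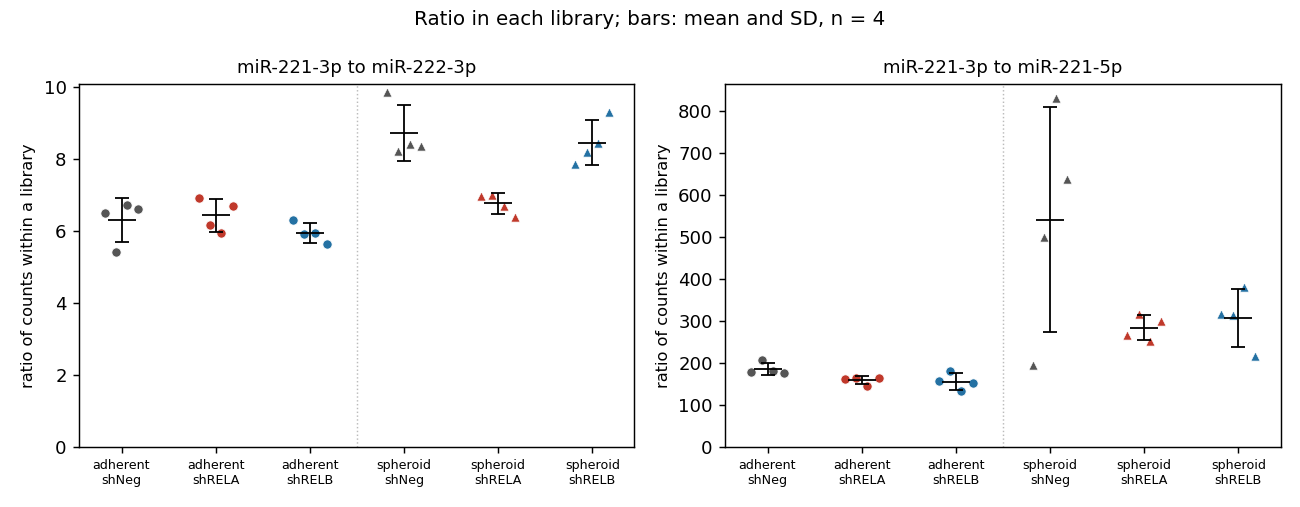
The y axes give the ratio of counts within a library on linear scales, with a point for each library and bars for mean and SD (n = 4). The ratio of miR-221-3p to miR-222-3p runs from 5.41 to 7.01 in the adherent groups and spheroid shRELA and is above 7.8 in spheroid shNeg and shRELB. The guide to passenger ratio is above 190 in all spheroid libraries, and adherent shNeg replicate 2, at 206, lies above spheroid shNeg replicate 1.

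miR-30e-5p, the reference miRNA of the study's qRT-PCR, gave a second yardstick for the guide arms. Against it, miR-221-3p had ratios of 16.6 ± 1.59 in adherent shNeg, 9.21 ± 2.75 in adherent shRELA and 18.8 ± 0.41 in adherent shRELB, and of 25.9 ± 5.85, 34.8 ± 1.56 and 35.2 ± 5.01 in the spheroid groups in the same order (SD, n = 4). miR-222-3p had 2.63 ± 0.15, 1.46 ± 0.52 and 3.17 ± 0.18 in adherent cells and 3.03 ± 0.86, 5.14 ± 0.20 and 4.21 ± 0.84 in spheroids. Without replicate 1, spheroid shNeg was at 28.7 ± 2.11 for miR-221-3p and 3.44 ± 0.24 for miR-222-3p (SD, n = 3). The knockdown differences kept the sign they had in CPM. RELA knockdown gave log2 differences of -0.90 and -0.93 for miR-221-3p and miR-222-3p in adherent cells and of 0.46 and 0.82 in spheroids, all 4 with separate groups and an exact permutation p of 0.0286 (adjusted 0.0625). Without spheroid shNeg replicate 1 the spheroid differences were 0.28 and 0.58, with separate groups and an exact permutation p of 0.0571, the smallest that 3 libraries against 4 allow. RELB knockdown in adherent cells gave 0.19 and 0.27, also with separate groups and an exact permutation p of 0.0286 (adjusted 0.0625), where the CPM groups overlapped. In spheroids it gave 0.46 and 0.51, with overlapping groups. All these ratios also carry any shift of the reference. After adherent RELA knockdown the TMM-scaled CPM of miR-30e-5p lay higher by 0.47 on the log2 scale (SE 0.20, edgeR FDR = 0.166). The guide arms themselves were at -0.50 and -0.53 there, so the larger ratio differences are not a separate measure of their fall. The shift of the reference was -0.12 after adherent RELB knockdown, and 0.20 and 0.24 after spheroid RELA and RELB knockdown.

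The culture comparison of the guide arms had the opposite sign on this yardstick in shNeg and shRELB cells, while in shRELA cells their CPM values had differed little between cultures. Relative to miR-30e-5p, miR-221-3p had a log2 difference, spheroid minus adherent, of 0.62 in shNeg, 1.97 in shRELA and 0.89 in shRELB, and miR-222-3p one of 0.15, 1.89 and 0.39. miR-30e-5p itself fell in spheroids in TMM-scaled CPM, with log2 fold changes of -1.69, -1.97 and -1.32. The fall of the guide arms in shNeg cells was therefore seen relative to the TMM-scaled library and not relative to miR-30e-5p. In shNeg cells exact permutation p was 0.0571 for miR-221-3p and 0.629 for miR-222-3p (adjusted 0.105 and 0.688). Without spheroid shNeg replicate 1 their log2 differences were 0.79 and 0.39, with separate groups and an exact permutation p of 0.0571 for each. The exact permutation p was 0.0286 (adjusted 0.0625) for both arms in shRELA and for miR-221-3p in shRELB, and 0.114 for miR-222-3p in shRELB.

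**Figure D5:**
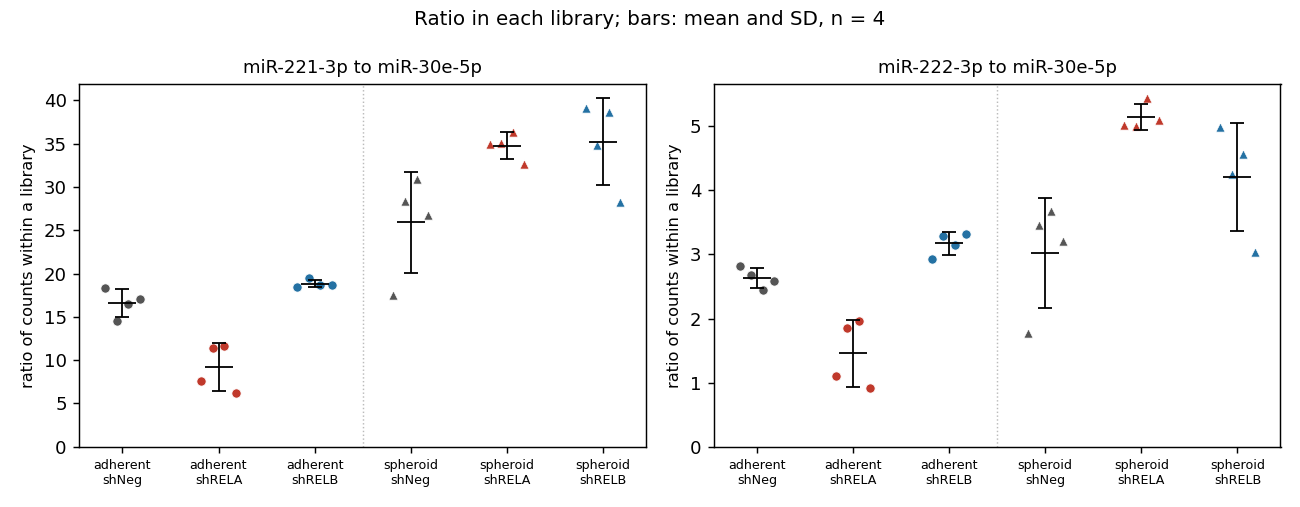
The y axes give the ratio of counts of each guide arm to miR-30e-5p within a library on linear scales, with a point for each library and bars for mean and SD (n = 4). Adherent shRELA is the lowest group in both panels and the spheroid knockdown groups are the highest.

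To see which miRNAs varied most like the guide arms, log2(CPM + 1) was correlated over the 24 libraries with that of 336 miRNAs of at least 10 CPM on average. The libraries fall into 6 groups that share culture and depth, so the values describe likeness only. miR-222-3p came first for miR-221-3p (Pearson r = 0.961) and miR-221-3p first for miR-222-3p. Next for miR-221-3p were miR-551b-5p (0.889), miR-27a-5p (0.886), miR-216a-5p (0.876) and miR-24-3p (0.875). miR-222-3p was followed by miR-551b-5p (0.923), miR-24-3p (0.910), miR-625-5p (0.903) and miR-23a-3p (0.895). By Pearson r the passenger arm miR-221-5p came in place 65 for miR-221-3p (0.717) and in place 45 for miR-222-3p (0.796). Its rank correlation was closer to that of the 3p arms with each other (Spearman rho = 0.841). It was 0.817 with miR-221-3p and 0.883 with miR-222-3p. All these correlations include spheroid shNeg replicate 1.

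A list of 15 other miRNAs reported as NF-κB targets gives the setting, and all 15 were tested. RELA knockdown in adherent cells called 4 of the 15 (1 higher, 3 lower), against 3.76% of all miRNAs, among them miR-125b-5p, with a log2 fold change of -5.05, and miR-146b-5p, a regulator of inflammatory signaling, with -1.23. RELB knockdown in adherent cells called 6 (2 higher, 4 lower), against 7.07%. In spheroids RELA knockdown called 5 (3 higher, 2 lower), against 15.1%, and RELB knockdown 6 (5 higher, 1 lower), against 13.4%. miR-155-5p, an inflammatory and oncogenic miRNA, rose in all 4 knockdown comparisons, with log2 fold changes of 2.34 to 3.84. The median log2 fold changes of the list in these comparisons were -0.28, -0.33, 0.75 and 0.69, and the medians of all miRNAs were 0.09, 0.04, 0.09 and 0.16.

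In TMM-scaled CPM most of the list was lower in spheroid than in adherent shNeg cells. The reference miR-30e-5p, which is not on the list, had a log2 fold change of -1.69 in that comparison. In shNeg cells 13 of the 15 were called, all lower, with a median log2 fold change of -1.77 against -0.26 for all miRNAs, of which 42.2% were called and 20.9% called lower. In shRELA cells 5 were called and in shRELB cells 4, all lower, against 32.6% and 25.0% of all miRNAs called in either direction. The difference of the knockdown effect between cultures was called for 5 of the 15 with RELA and for 5 with RELB, all toward higher values in spheroids, against 4.31% and 4.64% of all miRNAs called in that direction, as for the arms of miR-221 and miR-222 that were called. miR-146b-5p was among them, with differences of 2.04 and 2.11. These comparisons share the shNeg libraries, and the list was chosen with results of these data known.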

How the data were processed

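Small RNA from 24 samples was made into libraries with a kit that adds a unique molecular index, and whether reads were collapsed on it is not given in the sources used here. The authors trimmed adapters with Cutadapt, assigned reads to miRBase with miRDeep2 and worked on GRCh38. The deposited table holds estimated counts, not scaled for library size although titled as CPM, and 3.04% of non-zero values, none of the 4 arms, were not whole and were rounded.

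edgeR 4.0.16 (R 4.3.3) was run on all 24 libraries with TMM scaling and the 6 groups as the only term, for the 905 miRNAs that reached 1 CPM in 4 or more libraries. Its quasi-likelihood test was used with Benjamini-Hochberg FDRs over all 905, and calls needed an FDR below 0.01 and a fold above 2. SEs were derived from each log2 fold change and its F statistic, as their quotient after taking the square root of F. Ratios had 0.5 added to each count and were tested by exact 2-sided permutation, adjusted over 35 tests. Alternatives included limma 3.58.1 and DESeq2 1.42.0. Scripts were tested on simulated data. The 4 arms were taken by name, and the marker and NF-κB lists, likeness rule and thresholds were chosen with earlier results of these data known. No 2 libraries were alike within sampling noise. Counting limits cover counting error only. Hairpins, promoter and mature sequences were matched by name in RefSeq tables, with 3 of the 4 mature arms matched.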

Additional observations from a re-analysis of the deposited data

Results flagged for a closer look

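The change of RELA knockdown differed between cultures for all 4 arms at an edgeR FDR below 0.05, by 1.07 for miR-221-3p, 1.43 for miR-222-3p, 1.74 for miR-221-5p and 3.47 for miR-222-5p on the log2 scale, spheroid minus adherent. The last value rests on counts of 0 to 17 and is no bound. For RELB knockdown the difference was 1.10 for miR-221-5p.

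Of 54 sets of 4 libraries, 8 held a library far from the rest of its group. For a single set chance gives about 1 in 20. The sets share arms and libraries, so no excess over chance can be read from the 8. In adherent shNeg, replicate 2 had a ratio of miR-221-3p to miR-222-3p of 5.41, against 6.52 to 6.72 in the others, and a ratio of miR-221-3p to miR-221-5p of 206, against 175.8 to 179.7. In adherent shRELA, replicate 4 had 95.5 CPM of miR-221-5p against 90.5 to 90.8, and replicate 3 a ratio of miR-221-3p to miR-221-5p of 145.5 against 162 to 164. In spheroid shNeg, replicate 1 had a ratio of miR-221-3p to miR-222-3p of 9.88 against 8.22 to 8.42. There, replicate 3 had 1.03 CPM of miR-222-5p, from 2 counts, where the others had 0, a difference within the counting limit. In spheroid shRELA, replicate 1 had 2562 CPM of miR-222-3p against 2153 to 2188, and a ratio of miR-222-3p to miR-222-5p of 2187 against 919 to 1087.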

How the results depend on the processing

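The number of arms called moved by over 1.5 times in the cases below, and by less in others for the results with 3 arms. Spheroid against adherent shNeg, 3 arms, gave 1 with library totals and 1 with only the groups compared, 2 with a filter at a mean of 10 CPM, median-ratio factors and DESeq2, and 4 with limma and at an FDR below 0.05 with any fold. The RELA change between cultures, 3 arms, gave 1 with library totals, 2 with that filter, median-ratio factors, DESeq2 and only the groups compared, and 4 with limma and at that FDR. The RELB change, 1 arm, gave 0 without a filter, with median-ratio size factors, a filter at a mean of 10 CPM, library totals, DESeq2, only the groups compared and the replicate number as a block. Spheroid RELA knockdown, 1 arm, gave 3 with limma and 3 at that FDR. Spheroid RELB knockdown, 1 arm, gave 3 at that FDR and 0 with only the groups compared. Spheroid against adherent shRELB, 1 arm, gave 2 without a filter and 2 at that FDR. At that FDR spheroid against adherent shRELA, 0 arms, gave 1 and adherent shRELA against shRELB, 0 arms, gave 3. Leaving out each library in turn gave 0 to 1 for the RELB change, 1 to 2 for spheroid RELA knockdown, 1 to 2 for spheroid against adherent shRELB, 2 to 4 for the RELA change and 2 to 4 for spheroid against adherent shNeg. The causes were not tested.

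Signs turned only for values near 0 that were not called. Spheroid against adherent shRELA turned for miR-221-3p to -0.10 without a filter, -0.028 with median-ratio factors and with DESeq2, and ran from -0.12 to 0.096 when each library was left out, below 0 without spheroid shRELA replicate 1 or 3. For miR-222-3p it turned to 0.17 with a filter at a mean of 10 CPM, 0.14 with library totals, 0.0013 with the replicate block and 0.12 with only the groups compared. It ran from -0.18 to 0.026 when each library was left out, above 0 without adherent shRELA replicate 2, spheroid shNeg replicate 1 or spheroid shRELA replicate 2. Spheroid shRELA against shRELB turned for miR-221-5p to -0.0026 without a filter, -0.083 with library totals, and ran from -0.14 to 0.15 over the libraries left out, below 0 without spheroid shRELA replicate 1 or spheroid shRELB replicate 3. For miR-221-3p it ran from -0.11 to 0.026, above 0 without spheroid shRELA replicate 4. Adherent RELB knockdown turned for miR-221-3p to -0.027 with only the groups compared.

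Library totals in place of TMM shifted the log2 fold changes of the arms by -0.42 to 0.46 over the 11 comparisons, from 0.39 to 0.46 in spheroid against adherent shNeg and from -0.42 to -0.35 in spheroid RELA knockdown. Same-numbered replicates did not deviate together (r of -0.24 to 0.14 over 36 pairs, 1 over 0.1, and 2 of 24 libraries correlated best with their own number), so the block was kept as an alternative only, and it changed no other call. Depth limits miR-222-5p, at 17 counts or fewer in every library, and the spheroid shNeg group.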
